A study of Rattus norvegicus with 9 samples.

Results

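Arc, Npas4, the Egr family and the Nr4a family are genes whose transcription rises within minutes of synaptic activity in neurons, and they are described here in rat cortical cultures after oxygen-glucose deprivation. The 9 genes were taken by name, Egr1 to Egr4, Nr4a1 to Nr4a3, Arc and Npas4, and each matched 1 row among the 22050 genes of the deposited tables. The study sequenced RNA from primary cortical cultures of Sprague Dawley rats, prepared at embryonic day 19, in 3 groups of 3 libraries. Control cultures were untreated. The cultures of the second group spent 4.5 h at 1% oxygen in medium lacking glucose and pyruvate, a model of stroke in culture known as oxygen-glucose deprivation (OGD), and were then returned to normal oxygen and regular medium. The cultures of the third group also went through OGD and received the Wnt ligand Wnt3a at 100 ng/ml with Rspondin 1, a secreted enhancer of Wnt signalling, at 50 ng/ml, for 24 h. The sources used here do not give the time between OGD and harvest. The hours and oxygen level are stated for OGD alone only, and the tables call that group vehicle although its labels name none.

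In neurons, calcium that enters through NMDA receptors and L-type channels activates CaM kinases and the MAP kinase cascade, which act on the transcription factors CREB, SRF with its ELK partners, and MEF2. Their targets include a first wave of genes that need no new protein. The Egr genes encode zinc finger transcription factors, the Nr4a genes orphan nuclear receptors and Npas4 a bHLH-PAS transcription factor that is largely restricted to neurons. Arc encodes a synaptic protein that promotes the removal of AMPA receptors. Some of these genes, Egr1 and Nr4a1 among them, also respond to growth factors and stress in many other cell types.

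The promoters below are shown because Egr2 and Nr4a1 did not pass the test after OGD while Egr4 fell. RefSeq windows on GRCr8, from 250 bases before to 50 bases after a gene's start, were matched by symbol for 6 of the 9 genes. The capitals mark the letters TGACG or their reverse complement, the core of the cAMP response element (CRE) bound by CREB, and the CArG box bound by SRF.
Egr2, chr20:21054392-21054691, minus strand: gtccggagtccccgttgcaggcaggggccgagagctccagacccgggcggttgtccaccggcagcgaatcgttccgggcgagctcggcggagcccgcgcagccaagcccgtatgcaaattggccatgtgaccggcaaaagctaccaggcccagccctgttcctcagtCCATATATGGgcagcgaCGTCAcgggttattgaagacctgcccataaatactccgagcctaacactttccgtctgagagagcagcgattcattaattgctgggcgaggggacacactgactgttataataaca
Egr4, chr4:119607768-119608067, minus strand: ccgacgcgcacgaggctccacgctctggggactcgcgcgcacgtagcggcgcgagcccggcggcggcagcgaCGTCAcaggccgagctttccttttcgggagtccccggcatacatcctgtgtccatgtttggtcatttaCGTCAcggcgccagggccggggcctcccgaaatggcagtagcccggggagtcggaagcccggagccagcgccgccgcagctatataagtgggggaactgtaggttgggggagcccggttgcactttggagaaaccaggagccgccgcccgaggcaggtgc
Nr4a1, chr7:134259888-134260187, plus strand: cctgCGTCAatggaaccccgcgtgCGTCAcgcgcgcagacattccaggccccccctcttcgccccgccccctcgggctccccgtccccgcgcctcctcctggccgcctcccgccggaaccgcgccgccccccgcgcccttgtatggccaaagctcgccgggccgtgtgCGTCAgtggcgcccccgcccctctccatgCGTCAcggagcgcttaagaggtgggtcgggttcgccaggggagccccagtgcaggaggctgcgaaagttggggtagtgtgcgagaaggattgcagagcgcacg

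The Nr4a1 window held 4 CRE cores, the farthest 246 bases and the nearest 53 bases before the start. The Egr4 window held 2, at 178 and 110 bases, and the Egr2 window held 1 at 66 bases with a CArG box at 83 bases before the start. The Egr1 window held 2 CRE cores and 2 CArG boxes, the Nr4a2 window 1 CRE core, and the Npas4 window neither. Thus 5 of the 6 windows held a CRE core on either strand, against 21.2% of all 33469 windows of 300 bases, and 2 held a CArG box, against 1.64%. The full element TGACGTCA, which contains the core on both strands, was in none of the 6 and in 1.83% of all windows. The letters AAAGGTCA, a site for NR4A proteins, were in none of the 6 and in 1.43% of all. An EGR site (GCGTGGGCG or GCGGGGGCG) was in the Nr4a1 window alone and in 3.2% of all. Of the genes with a CRE core in the window, Egr4 and Nr4a2 fell after OGD, and Egr1, Egr2 and Nr4a1 did not pass the test. Npas4, whose window held no core, fell too. Egr3, Nr4a3 and Arc had no window, and a link between these letters and the changes was not tested. A match is a description of the letters and shows no binding.

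The libraries held 14285914 to 25048521 counted reads. Replicates were labelled as separate samples, with no statement that they came from separate cultures, so p-values measure the spread between these libraries, which may be technical. The cultures, labelled as neurons, held RNA of glial genes too: the summed level of 12 neuron markers was 2895 to 3033 FPKM (fragments per kilobase of transcript, scaled to library size) in controls, 510 to 683 after OGD and 512 to 661 after OGD with the 2 proteins. The summed level of 11 astrocyte markers was 2515 to 2685, 6719 to 7338 and 6335 to 6635 FPKM in the same order. Of 12 listed microglia markers 11 were matched, none at 0 reads throughout, and their sum was 4.12 to 6.34 FPKM in controls and 23.9 to 29.5 FPKM in the other libraries. The 10 oligodendrocyte lineage markers summed to 436 to 522 FPKM in controls and 1064 to 1153 FPKM in the others. Endothelial markers summed to 30.3 to 35 FPKM in controls and 15.2 to 17.1 in the others. Most of this was Ramp2 (31.1 and 14.6 FPKM in control and OGD means). Of 4 tested after OGD, 2 rose (Kdr and Tek) and 2 fell, and the defining marker Cldn5 was at 0 in all libraries. Tek was scarce, at 0.0467 FPKM in controls and 0.187 after OGD. Its rise rested on few reads, and it may have been tested only through libraries with OGD. Mural and fibroblast markers summed to 92.4 to 116 FPKM in controls and 638 to 884 FPKM in the others, mostly Tagln (96.8 and 748.6 FPKM); of 6 tested after OGD, 3 rose and 2, Dcn (-2.08) and Lum (-3.02), fell. In bulk RNA, fewer cells of a type and less RNA per cell cannot be told apart, and the part of these shifts in the results below was not tested.

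OGD set 6 of the 9 genes apart as lower than control: Egr3, Egr4, Nr4a2, Nr4a3, Arc and Npas4. The falls ran from 3.39-fold for Nr4a2 to 10.6-fold for Egr4. None of the 9 passed the test as higher, and Egr1, Egr2 and Nr4a1 did not pass in either direction. Across all 13693 tested genes, 36.8% were called lower and 36.3% higher (edgeR's quasi-likelihood test, adjusted p under 0.05), or 73.1% in either direction, so a fall was common in this comparison. At an unadjusted p under 0.05 there were 7 of the 9, the 6 and Egr2, against 74.8% of all genes. Scaled by library totals, the control and OGD libraries did not overlap for 7 of the 9, the 6 and Egr1 (higher), against 75.5% of all genes. With TMM scaling, added after the data had been seen, they did not overlap for the 6 and Nr4a1 (lower), against 75.1%. The median log2 change was -2.03 over the 9 genes, -2.63 over the neuron markers and 0.02 over all tested genes. Egr4 and Npas4 passed the filter on low counts only through the control libraries, so that a tested value for them had to come with high controls.

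**Figure D1:**
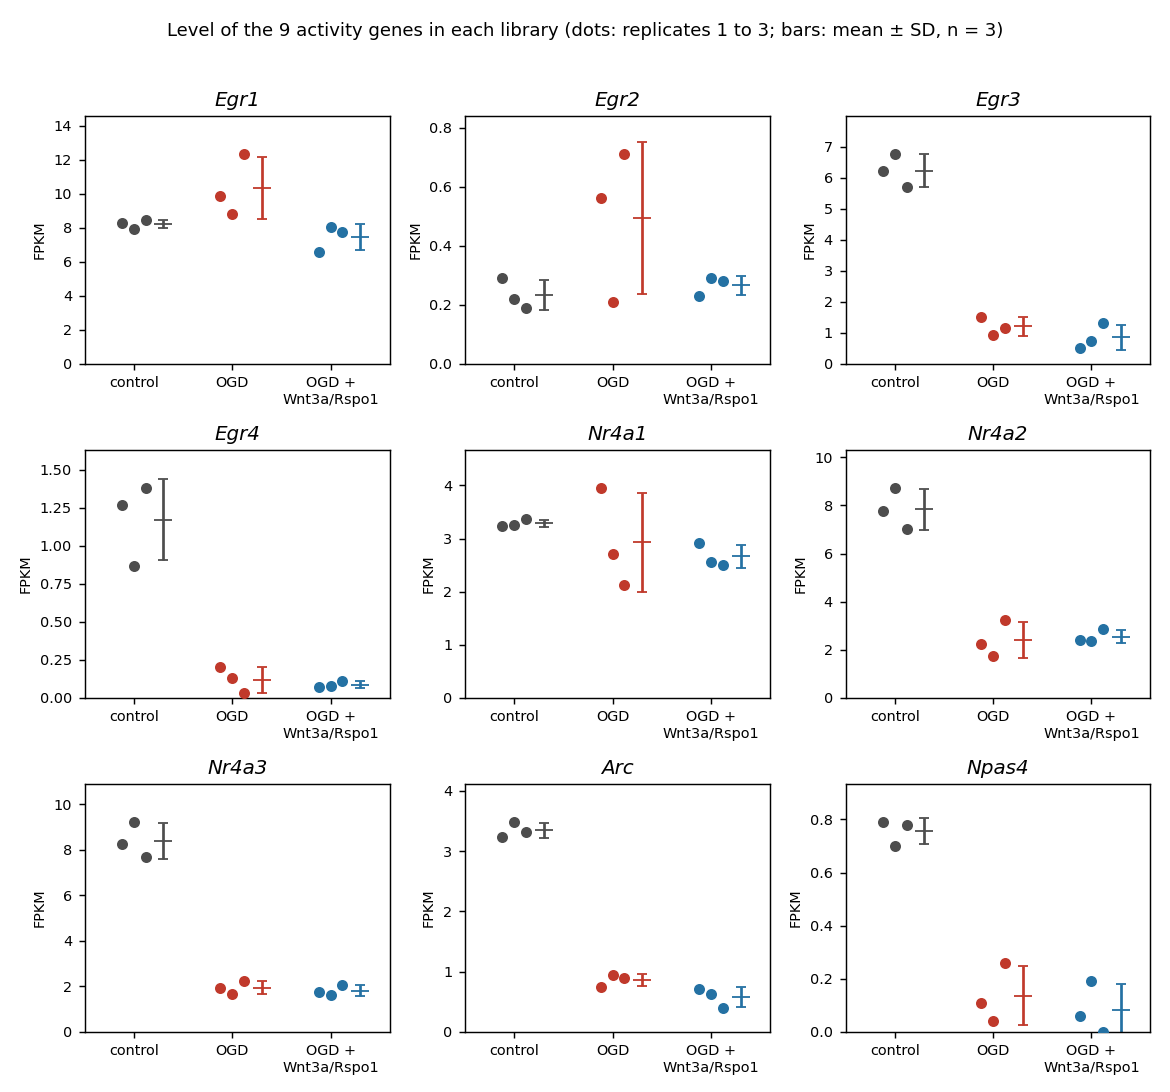
Level in FPKM (linear axis from 0) of each of the 9 genes in every library, with 3 dots per group in the order of replicates 1 to 3 and a bar for mean ± SD (n = 3). Egr3, Egr4, Nr4a2, Nr4a3, Arc and Npas4 are high in all 3 control libraries and low in the other 6, while Egr1, Egr2 and Nr4a1 are not.

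Among the Egr genes, Egr1 (ENSRNOG00000019422), the most studied activity marker of the family, was the most abundant after OGD. It stood at 8.27, 7.94 and 8.44 FPKM in control replicates 1 to 3, at 9.84, 8.83 and 12.33 FPKM after OGD, and at 6.59, 8.05 and 7.76 FPKM after OGD with Wnt3a plus Rspondin 1. OGD replicate 3 was the highest of the 9 libraries. By FPKM all 3 OGD libraries lay above all 3 controls, but with the TMM scaling of the test (which corrects for composition) OGD replicate 2, at 27.2 CPM (counts scaled to library size), lay among controls at 25.95 to 27.43 CPM. The log2 change from control to OGD was 0.24 ± 0.12 (± SE, adjusted p = 0.0926, edgeR). Without OGD replicate 2 it was 0.35 (adjusted p = 0.0216), and scaled by library totals alone it was 0.33 (adjusted p = 0.0315), so the call turned on 1 library and on the scaling. Leaving out 1 library at a time moved the change over 0.106 to 0.349. Of all 15 alternatives (edgeR or DESeq2) 13 left Egr1 uncalled, with an adjusted p of up to 0.428.

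Egr2 (ENSRNOG00000000640), best known as a regulator of myelination, was scarce. It had 19, 11 and 15 reads in controls, 26, 15 and 36 after OGD, and 15, 16 and 15 with the 2 proteins. OGD replicates 1 and 3, at 0.56 and 0.71 FPKM, stood above all other libraries, and OGD replicate 2, at 0.21 FPKM, lay among the controls at 0.19 to 0.29 FPKM. The log2 change after OGD was 0.96 ± 0.41 (adjusted p = 0.0521, edgeR). It was 1.37 without OGD replicate 2 (adjusted p = 0.00247) and 1.04 with library totals (adjusted p = 0.0373). Leaving out 1 library at a time moved it over 0.594 to 1.37. Of all 15 alternatives (edgeR or DESeq2) 13 left Egr2 uncalled, with an adjusted p of up to 0.25. In the same comparison 6 of 10 oligodendrocyte lineage markers rose and 3 fell, with a median log2 change of 0.87. Over all tested genes 36.3% were called higher and 36.8% lower. A link between these markers and the Egr2 values was not tested.

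Egr3 (ENSRNOG00000017828), a target of the same signals that acts in synaptic plasticity, fell by 2.56 ± 0.25 on the log2 scale after OGD, or 5.89-fold (adjusted p = 8.15e-07, edgeR). Its level was 6.2, 6.76 and 5.71 FPKM in controls and 1.52, 0.94 and 1.15 FPKM after OGD. With the 2 proteins it was 0.5, 0.74 and 1.3 FPKM, under every control. In CPM by library totals it was 0.951 to 2.12 with the 2 proteins, overlapping the 1.35 to 2.45 CPM after OGD. Egr4 (ENSRNOG00000015719), the family member with the fewest reads after OGD, had 55, 29 and 74 reads in controls, 6, 6 and 1 after OGD and 3, 3 and 4 with the 2 proteins. It fell by 3.40 ± 0.41 on the log2 scale (adjusted p = 7.05e-06, edgeR; -2.99 without OGD replicate 3), from 1.17 ± 0.268 to 0.12 ± 0.0854 FPKM (mean ± SD, n = 3). The spread among the 6 libraries with OGD was within a few reads and gives no order among them.

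The order of the Egr genes changed with the groups. In controls, per length, Egr1 was highest (8.22 ± 0.254 FPKM), followed by Egr3 (6.22 ± 0.525), Egr4 (1.17 ± 0.268) and Egr2 (0.233 ± 0.0513), with no overlap between neighbours. After OGD, Egr1 (10.3 ± 1.8 FPKM) and Egr3 (1.2 ± 0.294) were followed by Egr2 (0.493 ± 0.257) and Egr4 (0.12 ± 0.0854), and Egr2 had passed Egr4 in every library. For each read of Egr3 there were 2.48, 2.16 and 2.55 reads of Egr1 in controls, 12.6, 20.5 and 17.9 after OGD and 21.7, 18.7 and 11.5 with the 2 proteins. This pair was chosen after its values were seen, and its log2 ratio differed between OGD and control by 2.80 (exact two-sided permutation test, p = 0.1, the smallest that 3 against 3 allows; adjusted p = 0.15 over 6 such tests).

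Of the Nr4a genes, Nr4a3 (ENSRNOG00000005964), also known as NOR-1, was the one with the most reads in controls and fell by 2.20 ± 0.13 on the log2 scale, or 4.59-fold (adjusted p = 1.1e-08, edgeR). It measured 8.25, 9.22 and 7.67 FPKM in controls, 1.93, 1.66 and 2.25 FPKM after OGD and 1.77, 1.6 and 2.07 FPKM with the 2 proteins. The 2 groups with OGD overlapped and lay under every control. Nr4a2 (ENSRNOG00000005600), known as Nurr1 and required for dopamine neurons, fell by 1.76 ± 0.17 (adjusted p = 9.54e-07, edgeR). Its FPKM was 7.78, 8.72 and 7.01 in controls, 2.24, 1.74 and 3.24 after OGD and 2.4, 2.38 and 2.86 with the 2 proteins, again with no overlap with controls.

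Nr4a1 (ENSRNOG00000007607), or Nur77, a receptor also induced in many non-neuronal cells, did not pass the test in any of the 3 comparisons. It had 145, 117 and 201 reads in controls, 106, 150 and 83 after OGD, and 145, 108 and 103 with the 2 proteins. Scaled by library totals this was 7.21 to 8.02 CPM in controls, 5.27 to 7.42 after OGD and 6.24 to 7.26 with the 2 proteins, so the groups overlapped. With TMM scaling it was 7.65 to 8.29, 5.13 to 7.41 and 6.04 to 7.06 CPM, and all 6 libraries with OGD lay under every control. The log2 change after OGD was -0.31 ± 0.15 (adjusted p = 0.08, edgeR), and without OGD replicate 1 it was -0.42 (adjusted p = 0.0272). Leaving out 1 library at a time moved it over -0.418 to -0.178. Of all 15 alternatives (edgeR or DESeq2) 14 left Nr4a1 uncalled, with an adjusted p of up to 0.308.

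The FPKM of Nr4a1 is less certain than that of Nr4a3. Count and FPKM together imply the gene length that the authors' FPKM used, and for Nr4a1 this was 2226 to 2381 bases in controls, 1878 bases in OGD replicate 1 and 2479 to 2486 bases in the other 5 libraries. It varied as much for Egr3, at 1434 to 1903 bases (1.33-fold, against 1.32-fold for Nr4a1), and less for Nr4a2, at 2506 to 2916 bases. For Egr1 it was 3128 to 3132 bases and for Nr4a3 4384 to 4407 bases. OGD replicate 1 therefore had the highest Nr4a1 level of all libraries in FPKM, at 3.95, but not in CPM. In controls Nr4a3 (8.38 ± 0.783 FPKM) and Nr4a2 (7.84 ± 0.856) overlapped, and Nr4a1 (3.29 ± 0.0723) lay under both. After OGD the 3 genes overlapped, at 1.95 ± 0.295, 2.41 ± 0.764 and 2.93 ± 0.934 FPKM for Nr4a3, Nr4a2 and Nr4a1. There were 0.199, 0.185 and 0.238 reads of Nr4a1 per read of Nr4a3 in controls and 0.876, 0.926 and 0.532 after OGD, a difference of 1.87 on the log2 scale (pair chosen after its values were seen; exact two-sided permutation test, p = 0.1; adjusted p = 0.15 over the same 6 tests).

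**Figure D2:**
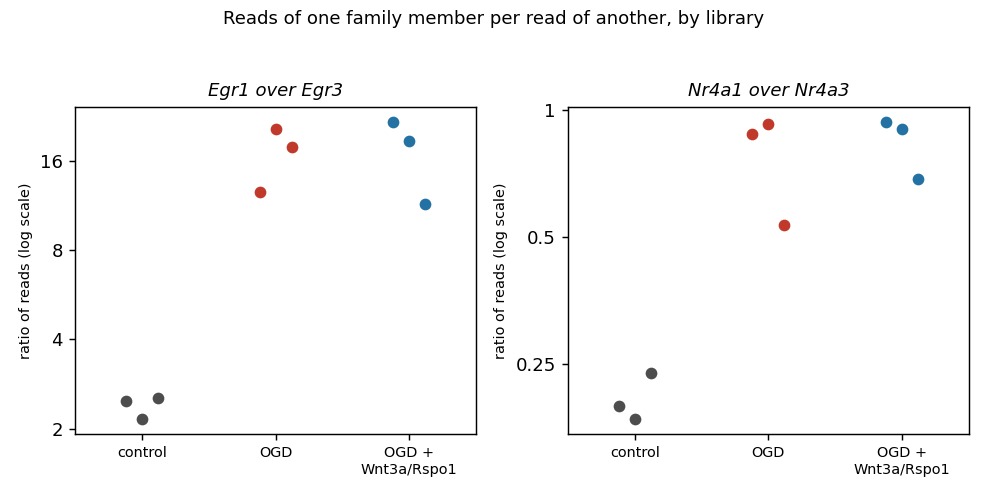
Reads of Egr1 per read of Egr3 (left) and of Nr4a1 per read of Nr4a3 (right) in each library, on logarithmic axes, with 3 dots per group in the order of replicates 1 to 3. The controls, at 2.16 to 2.55 and at 0.185 to 0.238, lie under all 6 libraries with OGD in both panels.

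Arc (ENSRNOG00000043465), the effector among the 9 genes, fell by 2.03 ± 0.18 on the log2 scale after OGD, or 4.08-fold (adjusted p = 4.2e-07, edgeR). It stood at 3.23, 3.48 and 3.32 FPKM in controls, at 0.74, 0.94 and 0.9 FPKM after OGD, and at 0.71, 0.62 and 0.4 FPKM with the 2 proteins. Every library of the third group lay under every OGD library, which in turn lay under every control. Npas4 (ENSRNOG00000020009) was the scarcest of the genes that fell in terms of control level, with 39, 27 and 48 reads in controls, 4, 2 and 10 after OGD and 3, 8 and 0 with the 2 proteins. The library at 0 could hold up to 3 reads, or 0.182 CPM, by counting error alone. Npas4 fell by 2.64 ± 0.58 (adjusted p = 0.00111, edgeR), from 0.757 ± 0.0493 to 0.137 ± 0.112 FPKM, and the size rested on few reads, at -3.51 without OGD replicate 3 and -2.08 without OGD replicate 2.

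The 3 OGD libraries did not rank alike across the 9 genes. In CPM, OGD replicate 3 was the highest of the 3 for 5 genes (Egr1, Egr2, Nr4a2, Nr4a3 and Npas4) and replicate 2 the lowest for the same 5 and for Egr3. Egr4 and Nr4a1 were lowest in replicate 3, and Arc was lowest in replicate 1.

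**Figure D3:**
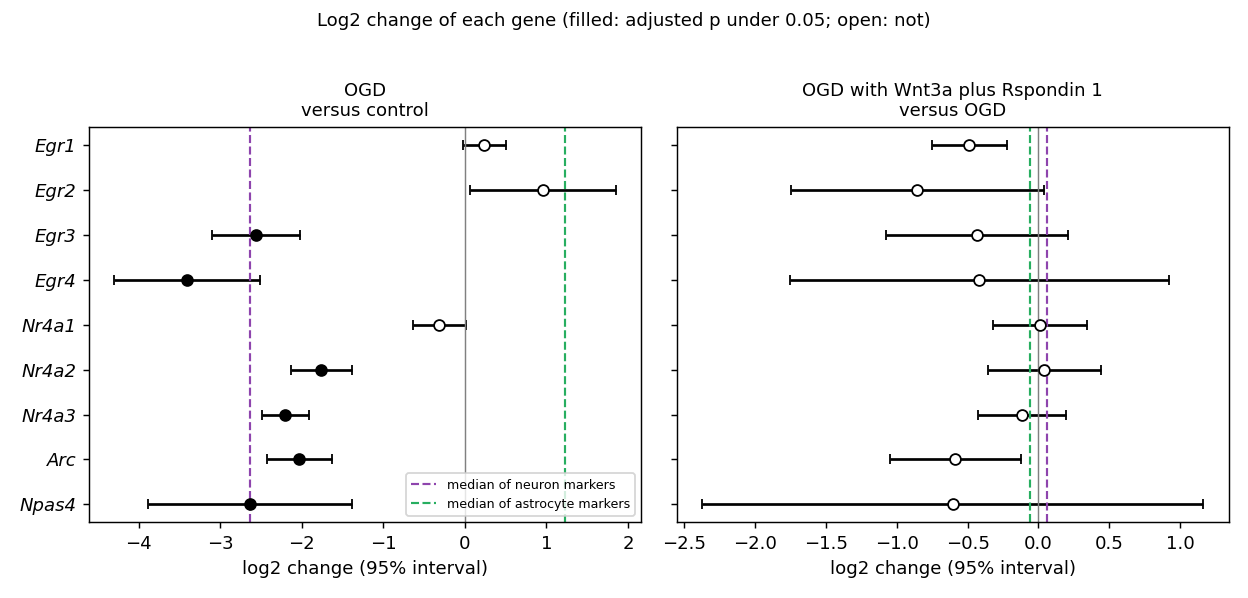
Log2 change of each gene with its 95% interval from edgeR, for OGD minus control (left) and for OGD with Wnt3a plus Rspondin 1 minus OGD (right), with filled dots where the adjusted p was under 0.05. Dashed lines give the median of the neuron markers (-2.63 and 0.06) and of the astrocyte markers (1.22 and -0.06); 6 dots are filled on the left, from -1.76 to -3.40, and no dot is filled on the right.

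Wnt3a plus Rspondin 1 given with OGD left none of the 9 genes past the threshold against OGD alone (edgeR), where 0.197% of all tested genes passed. At an unadjusted p under 0.05 there were 2 of 9, Egr1 and Arc, against 5.73% of all genes. Egr1 had a log2 change of -0.49 ± 0.12 (95% interval -0.75 to -0.22, adjusted p = 0.226, edgeR). Arc had one of -0.59 ± 0.21 (-1.05 to -0.13, adjusted p = 0.647, edgeR). Both were lower in 3 of 3 libraries than in any OGD library, under both scalings. Over all genes 9.78% did not overlap by library totals and 9.57% with TMM, in either direction. DESeq2 called Egr1 alone of the 9 (adjusted p = 0.0494), and over all alternatives the adjusted p of Egr1 ran from 0.0494 to 0.572.

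For the other 7 genes the interval of the difference took in 0. It was -0.32 to 0.35 on the log2 scale for Nr4a1, -0.36 to 0.44 for Nr4a2 and -0.43 to 0.20 for Nr4a3, and larger changes lay outside it. The scarcer genes were measured less closely, at -1.75 to 0.04 for Egr2, -1.08 to 0.21 for Egr3, -1.75 to 0.92 for Egr4 and -2.38 to 1.17 for Npas4. The median over the 9 genes was -0.43, beside 0.00 over all tested genes, 0.06 over neuron markers and -0.06 over astrocyte markers.

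Against control, the cultures with OGD and both proteins showed 6 of the 9 genes lower and none higher, where 36% of all genes were called lower, 36.6% higher and 72.6% either way (edgeR). The libraries of the 2 groups did not overlap for the same 6 when scaled by library totals, against 79.5% of all genes, and for these and Egr1 and Nr4a1, 8 in all, with TMM scaling, against 78.7%. The same 6 had an unadjusted p under 0.05, against 74.5%. These were the same 6 as after OGD alone; the comparisons share their control libraries, so the values are given side by side only. The log2 changes were -2.99 ± 0.26 for Egr3 against -2.56 ± 0.25 after OGD alone, -2.62 ± 0.19 against -2.03 ± 0.18 for Arc, and -2.31 ± 0.14 against -2.20 ± 0.13 for Nr4a3. Egr1 had -0.25 ± 0.12 (adjusted p = 0.0883, edgeR) and Nr4a1 -0.30 ± 0.15 (adjusted p = 0.0899, edgeR), and with only the 6 libraries compared both passed (adjusted p = 0.0219 and 0.0435). The other 14 of 15 alternatives (edgeR or DESeq2) left each uncalled, with adjusted p of up to 0.328 for Egr1 and 0.25 for Nr4a1. Over all 15 the change ran from -0.303 to -0.141 for Egr1 and from -0.373 to -0.195 for Nr4a1. Npas4 had -3.24 ± 0.61, or -4.51 without replicate 2 of the third group. Here too Egr4 and Npas4 passed the filter only through the control libraries. A tested value for them thus had to come with high controls. In the authors' deposited table Egr1 had an FDR of 0.0443 in this comparison, with a log2 fold of -0.138. The FDR there was 0.132 for Nr4a1 and 0.897 for Egr2. For Egr1 it was 0.144 in OGD against control and 0.195 with the proteins against OGD.

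**Figure D4:**
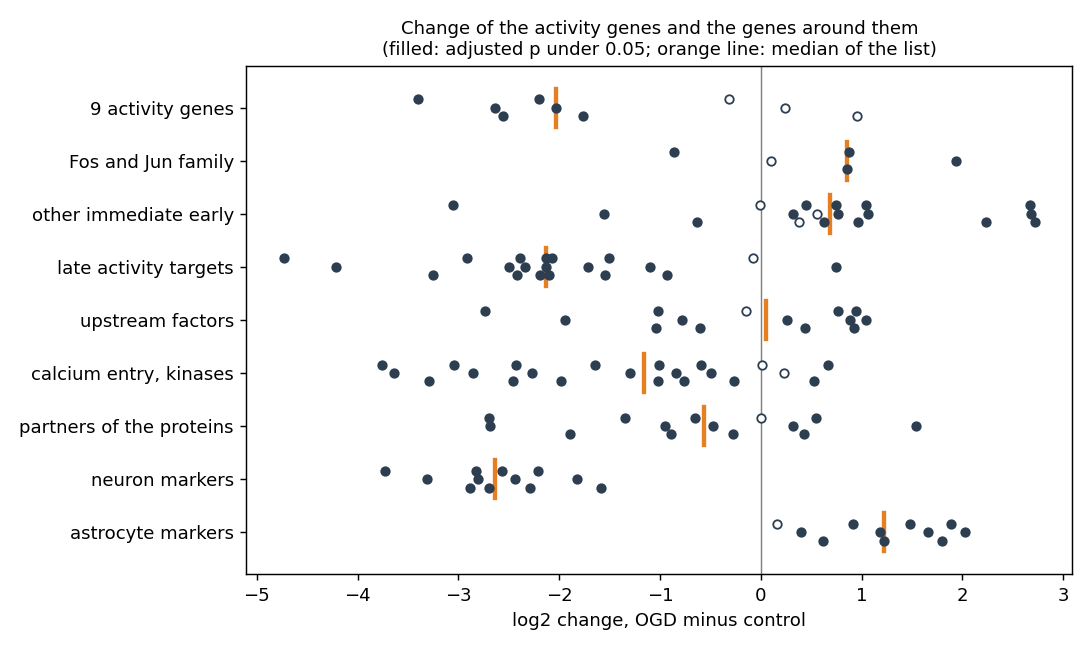
Log2 change from control to OGD of every tested gene in each list (1 dot per gene, filled where the adjusted p was under 0.05, spread vertically for legibility), with an orange line at the list's median. The medians of the 9 activity genes (-2.03) and of the late targets of neuronal activity (-2.13) lie far left of those of the Fos and Jun family (0.85) and the other immediate early genes (0.68).

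Other immediate early genes moved both ways after OGD, more of them up than down. Over all tested genes 36.3% were called higher and 36.8% lower. Of the Fos and Jun family 5 of 7 genes were tested, and 3 rose and 1 fell after OGD (median log2 change 0.85). Fos, the partner of Jun in the AP-1 factor, rose by 1.93 ± 0.11, from 5.63 ± 0.57 to 22.7 ± 1.85 FPKM, and Junb by 0.85 ± 0.13. Jun rose as well (0.88 ± 0.11). The 1 that fell was Fosl1, at -0.87, a gene named with its value known. Fosb, also named so, had too few reads to be tested and averaged 0.25 FPKM in controls and 0.0433 FPKM after OGD, with no overlap of the libraries. Of 18 further immediate early genes, 12 rose and 3 fell (median 0.68). Zfp36, which destabilises cytokine mRNAs, rose by 2.68 ± 0.15, and the growth arrest genes Gadd45b and Gadd45g by 2.67 ± 0.20 and 2.23 ± 0.13. The 3 that fell, named after their values were seen, were Klf2 (-3.06), Sik1 (-1.55) and Nfil3 (-0.63). Beside these rises, 10 of 11 astrocyte markers rose (median 1.22), among them Gfap by 1.89 ± 0.09, and all 8 tested microglia markers (2.22). The matched markers Tmem119, P2ry12 and Trem2 had too few reads to be tested. Some tested microglia markers were scarce in controls, such as Aif1 at 0.187 FPKM, against 1.13 after OGD. Where only libraries with OGD brought such a marker past the filter on low counts, a tested value had to come with low controls.

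Of 20 late targets of neuronal activity, 18 fell after OGD and 1 rose (median log2 change -2.13). Over all tested genes 36.8% were called lower and 36.3% higher. Rgs4, a regulator of G protein signalling, fell by 4.22 ± 0.20. The synaptic pentraxin gene Nptx1 fell by 2.91 ± 0.17, and Nrn1, which promotes neurite growth, fell by 3.26 ± 0.20. Bdnf, the neurotrophin and a target of Npas4, fell by 2.49 ± 0.41, from 0.507 to 0.1 FPKM. It was scarce after OGD, as was Ptgs2, also among those that fell (0.583 to 0.02 FPKM). Such genes may have passed the filter on low counts only through the control libraries, and a tested value then had to come with high controls. The 1 that rose was Crem (0.74 ± 0.14), which encodes activators and repressors related to CREB; the length implied by its count and FPKM differed 2.05-fold between libraries, and the value is the change in counts. All 12 neuron markers fell beside the list, among them Tubb3 (-2.57 ± 0.13) and Stmn2 (-2.70 ± 0.19).

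Vgf, a secreted neuropeptide precursor induced by activity and neurotrophins, was the 1 gene of the late list to pass when the 2 proteins were added to OGD. It rose by 0.84 ± 0.13 on the log2 scale over OGD alone, from 4.1 ± 0.559 to 7.46 ± 1.04 FPKM (adjusted p = 0.0142, edgeR), and was under the control level of 16.2 ± 0.993 FPKM. The call was lost without OGD replicate 2 (adjusted p = 0.0967), without replicate 2 (0.117) or 3 (0.0895) of the third group, and with only the 6 libraries compared (0.0956). DESeq2 called Vgf and also Dusp4 of that list. No gene of the other lists of immediate early, upstream or partner genes passed by edgeR or DESeq2. At an unadjusted p under 0.05 there were 0 of 5 in the Fos and Jun family, 3 of 18 other immediate early genes, 0 of 14 upstream factors, 0 of 22 calcium and kinase genes and 1 of 14 partners. Over all tested genes the share was 5.73%. Klf4 had the lowest adjusted p among the other immediate early genes (0.463, log2 change 0.90 ± 0.28), and the partner gene with an unadjusted p under 0.05 was Nab2, at -0.25 ± 0.11.

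Upstream of the 9 genes, the calcium channels and kinases were mostly lower after OGD. Of 22 calcium and kinase genes, 18 fell and 2 rose (median log2 change -1.16), beside 36.8% lower and 36.3% higher over all tested genes. Rasgrf1, a calcium-regulated activator of Ras, fell by 2.86 ± 0.09, as did the CaM kinase genes Camk2a (-3.76 ± 0.17) and Camk2b (-3.05 ± 0.14). The 2 that rose, named after their values were seen, were Map2k2 (0.53) and Rps6ka4 (0.67). Of 14 transcription factor genes, 7 rose and 6 fell (median 0.05), beside 36.3% higher and 36.8% lower over all tested genes. Mef2a fell by 1.94 ± 0.10 and Srf fell by 0.78 ± 0.08, while Elk4, an SRF partner, rose by 0.89 ± 0.09. Creb1, named after its value was seen, had a change of -0.15 ± 0.12 (adjusted p = 0.257, edgeR).

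Of 14 partners of the encoded proteins 4 rose and 9 fell (median log2 change -0.57), beside 36.3% higher and 36.8% lower over all tested genes. Nab1 and Nab2, which repress EGR proteins, fell, at -0.89 ± 0.10 and -0.95 ± 0.11. Rxrg, a heterodimer partner of NR4A1 and NR4A2, fell by 2.68 ± 0.17, while Rxra, named after its value was seen, rose by 1.54. Arnt2, which pairs with NPAS4, fell by 0.48 ± 0.08. Of the synaptic partners of Arc, the postsynaptic scaffold gene Dlg4 fell by 1.89 ± 0.09 and Wasf1 fell by 1.35 ± 0.07. The genes named from these lists as rising or falling after OGD kept their call and direction under all 15 alternatives, which were run on them after the data had been seen. Many were named for a small adjusted p in this same comparison, so a kept call was likely from that choice alone.

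Genes with the pattern most like each of the 9 were sought among 11493 tested genes with a gene name and a mean of at least 1 FPKM, by Pearson's r of log2 CPM over the 9 libraries, which fall into a control cluster and the rest. For the genes that fell the closest were Rbfox2 and Adcy1 for Nr4a3 (r = 0.999 each), Unc5d (0.999) and Wipf3 (0.997) for Nr4a2, Kcnh1 and Prph for Egr3 (0.993 each), Myrip (0.993) and Pcdhga8 (0.991) for Arc, Zdhhc5 (0.991) and Slc25a12 (0.988) for Egr4, and Cops8 (0.979) and Mon1a (0.966) for Npas4. For the 3 genes that did not pass after OGD they were Ptp4a3 (0.849) and Adat1 (0.815) for Egr1, Psen2 (0.894) and again Ptp4a3 (0.858) for Egr2, and Tmem160 (0.982) and Phospho1 (0.954) for Nr4a1.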

How the data were processed

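Libraries were made with an Illumina TruSeq RNA kit from 1 µg of total RNA, per the labels' protocols. The submitters' processing notes name mm8, mm9 (mouse builds) and Bowtie 0.12.2, while the identifiers are rat Ensembl genes; the rat build, the counter and whether it used strand are not given in the sources used here. The authors deposited whole-number counts per gene and FPKM, and, for each pair of groups, log2 folds and p-values with FDR from a test not given here. Column names were matched to sample titles (WR to RW).

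Counts were fitted with edgeR 4.0.16 (R 4.3.3): filterByExpr (minimum count 10), TMM scaling, 1 robust quasi-likelihood fit of all 9 libraries with a mean per group, and Benjamini-Hochberg adjustment over 13693 genes with a threshold of 0.05. DESeq2 1.42.0, other scalings and filters, 6 libraries only, a replicate block and leaving out each library were alternatives. The procedure was tested on simulated data in which few genes changed. Most tested genes were called after OGD, so that simulation does not test the scaling in the comparisons with control. The 9 genes and the lists were chosen with earlier results of these data known; Ier2, Amigo3, Ep300, Mrtfb, Itgam, Pecam1 and Col1a2 were not matched. Named genes were the 9, the 3 with the smallest adjusted p per list after OGD, those past the threshold (or the smallest adjusted p) with the proteins, a few fixed partners, the most abundant markers and the 2 nearest patterns per gene. Replicates of a group differed by more than sampling noise (chi-square divided by its degrees of freedom, 3.6 or more).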

Additional observations from a re-analysis of the deposited data

How the results depend on the processing

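The number of the 9 genes called against control stayed at 6 to 8 under every alternative, after OGD and after OGD with both proteins. After OGD 6 were lower, or 7 without OGD replicate 1 (with Nr4a1), and 2 (Egr1 and Egr2) were also higher by library totals and without OGD replicate 2. With both proteins 6 were lower, or 8 with only the 6 libraries compared. Leaving out 1 library gave 6 to 8 after OGD, 0 with the proteins against OGD and 6 with the proteins against control. Against OGD, DESeq2 called 1 of the 9 genes and gave Npas4 no adjusted p. Over all genes in that comparison, edgeR called 27, DESeq2 99, the fit of the 6 libraries 15, and fits without 1 library 12 to 49 (49 without OGD replicate 1, 13 without OGD replicate 2, 12 and 17 without replicates 2 and 3 of the third group). With the replicate block it called 65 of all genes, 0 of the 9 against OGD and 6 in either comparison with control. The deviations of same-numbered libraries correlated at -0.07 to 0.27 over all pairs of groups. Between OGD and the third group they correlated at 0.232, 0.0734 and 0.267 for replicates 1 to 3. Libraries of different number in these 2 groups correlated at -0.238 to -0.0236. The main fit did not pair the samples, and whether these 2 groups were paired by number is not known. Against OGD, values near 0 changed sign without passing any test. Nr4a1 was at -0.00229 with RLE size factors and -0.00159 with DESeq2. Leaving out 1 library moved Nr4a1 over -0.12 to 0.12, Nr4a2 over -0.151 to 0.299, Egr4 over -0.831 to 0.0287 and Npas4 over -1.88 to 0.264, and against control Egr2 over -0.0517 to 0.322, below 0 without control replicate 3. The cause was not tested. Egr4 and Npas4, at 0 to 10 reads per library after OGD, and Egr2 are limited by depth.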
